A study of Mus musculus with 9 samples.

Results

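The transcriptome of differentiated MC3T3-E1 cells that received no added phosphate was described from the 3 Control libraries of a study of 9 bulk RNA sequencing libraries. MC3T3-E1 is an established mouse pre-osteoblast line from calvaria, the flat bone of the skull, and its genotype is given as WT. The members were chosen by their label alone, and no treated library was used. In the Control group, as in the whole study, cells were grown for 2 days in αMEM with 10% fetal bovine serum and were then kept in osteogenic medium with 10 mM β-glycerophosphate (BGP), 50 µg/ml ascorbic acid and 0.1 µM dexamethasone, a synthetic glucocorticoid. The labels give 27 days of differentiation in this medium, whereas the study's methods state that BGP was left out in the final week, so the phosphate supply just before harvest is uncertain. Control cells did not receive the BGP or sodium phosphate treatment of day 27 and were harvested on day 28. The αMEM itself contains sodium phosphate, so the Control is a state without added phosphate and not one without phosphate.

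The line is limited as a model in that it is a single subclone of an immortal line, grown on plastic without osteoclasts, vessels or marrow. The 3 libraries carry replicate numbers, but the labels do not say that they came from separate cultures, so the spread between them may be technical. Total counts were 21390839, 23159816 and 25646046, and between 18530 and 18822 genes had at least 1 count in a library. Mitochondrially encoded genes took 2.51% to 2.68% of the counts. Levels are given in TPM, the count of a gene divided by the merged length of its annotated exons and scaled to a total of 1000000 in each library, as mean ± SD over 3 libraries. TPM is a share of the RNA in the sample, and in bulk RNA fewer cells of a type and less RNA per cell cannot be told apart. A gene was counted as expressed when it reached 1 TPM in every library. A count of 0 in a library allows up to 3 counts, which is 0.117 to 0.140 CPM (counts per 1000000 counts of the library) at these depths, and this limit covers counting error only.

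Osteoblasts build bone by secreting type I collagen, a triple helix of *Col1a1* and *Col1a2* chains, together with acidic phosphoproteins and other matrix proteins that guide the deposition of calcium phosphate. The transcription factors *Runx2* and *Sp7* drive the lineage, tissue-nonspecific alkaline phosphatase (*Alpl*) releases phosphate at the cell surface, and osteocalcin (*Bglap*) marks mature cells. Osteoblasts that become embedded in matrix turn into osteocytes, which express *Dmp1*, *Phex* and *Mepe*, the Wnt antagonist sclerostin (*Sost*) and the phosphate-regulating hormone *Fgf23*.

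Mouse has 3 osteocalcin genes in a row on chromosome 3, and their transcripts are nearly the same, which bears on how their counts can be read. The coding sequences of *Bglap*, *Bglap2* and *Bglap3*, spliced from 4 coding exons each and without the stop codon, are shown because the split of reads between them rests on the few bases that differ. They were read from GRCm39 on the minus strand and span chr3:88290945-88291722, chr3:88285180-88285957 and chr3:88276066-88276843. Capitals in *Bglap* mark bases that differ from *Bglap2*, and capitals in the other two mark bases that differ from *Bglap*.
Bglap: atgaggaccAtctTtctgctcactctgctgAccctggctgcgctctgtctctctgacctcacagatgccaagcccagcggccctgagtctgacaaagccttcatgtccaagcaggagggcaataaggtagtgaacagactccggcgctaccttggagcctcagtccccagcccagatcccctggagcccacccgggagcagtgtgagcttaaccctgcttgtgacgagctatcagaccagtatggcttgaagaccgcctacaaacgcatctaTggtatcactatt
Bglap2: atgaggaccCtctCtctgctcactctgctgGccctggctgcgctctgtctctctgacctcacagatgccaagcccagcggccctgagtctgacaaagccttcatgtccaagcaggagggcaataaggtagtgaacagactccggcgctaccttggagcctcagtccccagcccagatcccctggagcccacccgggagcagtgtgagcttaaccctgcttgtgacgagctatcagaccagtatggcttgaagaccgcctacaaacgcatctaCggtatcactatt
Bglap3: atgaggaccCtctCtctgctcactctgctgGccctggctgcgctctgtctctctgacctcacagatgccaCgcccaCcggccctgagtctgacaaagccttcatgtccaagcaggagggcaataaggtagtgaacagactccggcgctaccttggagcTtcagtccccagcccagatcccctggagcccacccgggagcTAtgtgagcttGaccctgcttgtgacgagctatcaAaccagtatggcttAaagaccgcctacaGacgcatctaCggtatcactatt
Over 285 bases, *Bglap2* differed from *Bglap* at 4 positions (98.6% identity) and *Bglap3* at 13 (95.4% identity). Of the 236 windows of 50 bases, the length of 1 read, in the coding sequence of *Bglap*, 192 (81.4%) also occurred in *Bglap2* and 32 (13.6%) in *Bglap3*. A read from such a window cannot be assigned from its sequence alone.

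All 9 osteoblast markers were expressed in the Control cells, against 51.5% of all protein-coding genes (11133 of 21627). The label of an osteoblast lineage thus did not go against the data. The members of this and the lists below were chosen with earlier results of these data known, so their shares are no independent support. *Col1a1* reached 30686, 32487 and 33919 TPM in replicates 1, 2 and 3, and was the most abundant nuclear protein-coding gene. *Ibsp*, the gene of bone sialoprotein, a phosphoprotein that binds collagen and nucleates mineral, came next with 29720, 30061 and 28617 TPM. *Sparc* (osteonectin, a collagen-binding glycoprotein) and *Col1a2* followed at 22679 ± 610 and 21884 ± 678 TPM, and the ranges of these 2 genes overlapped. The 9 markers together took 13.4% ± 0.350 of all counts.

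The other 5 markers lay below these 4 in every library. *Spp1* (osteopontin, which binds mineral and inhibits its growth) had 2842, 2898 and 3255 TPM, and *Bglap* had 2196, 1997 and 2057 TPM. *Runx2* was the marker that varied least between libraries, with 236, 234 and 232 TPM. *Dmp1* had 113, 102 and 134 TPM, the widest relative range of the 9, with its highest value in replicate 3 and its lowest in replicate 2. *Alpl* was the least abundant marker with 70.1, 72.1 and 75.9 TPM and stood at rank 2058 of the protein-coding genes, mitochondrially encoded ones included.

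**Figure D1:**
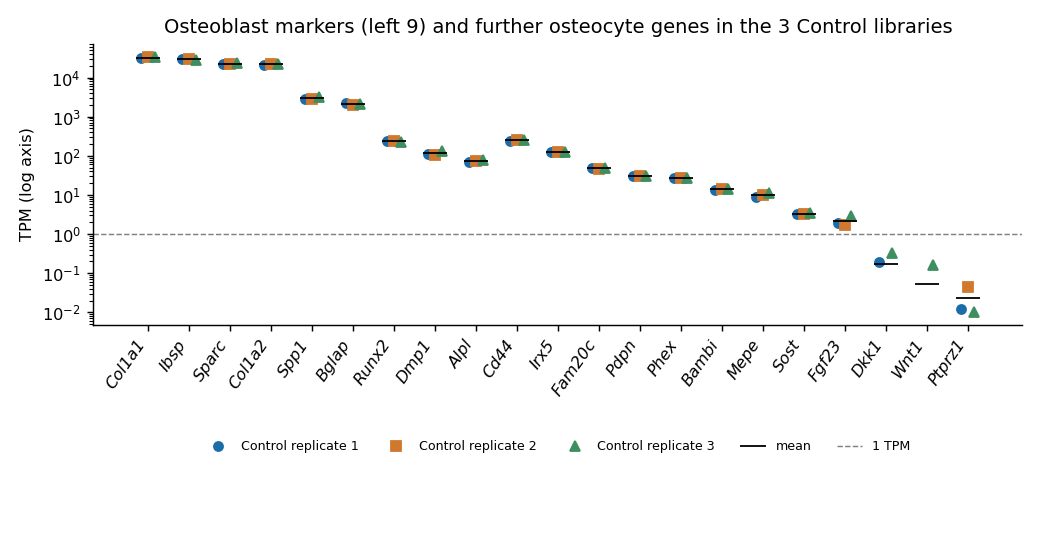
TPM (log axis) of the 9 osteoblast markers (left, ordered by mean) and of the further osteocyte genes with at least 1 count, in each of the 3 Control libraries; short lines are means over 3, the dashed line is 1 TPM, and libraries with 0 counts have no point. The markers run from *Col1a1* at 32364 TPM to *Alpl* at 72.7 TPM, and *Dkk1*, *Wnt1* and *Ptprz1* lie under 1 TPM.

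The order of the 4 most abundant markers depended on the length by which counts were divided. With the longest annotated transcript in place of all exons, *Col1a2* came first at 36585 ± 1108 TPM, followed by *Sparc* at 27324 ± 720, *Col1a1* at 25753 ± 1275 and *Ibsp* at 21173 ± 565 TPM. The annotated exons of *Col1a2* add up to 12650 bases, but its longest transcript has 5437. The ratio of *Col1a1* to *Col1a2* was 1.48 ± 0.0302 by exon length, 0.704 ± 0.0144 by the longest transcript and 0.767 ± 0.0157 in plain counts. In the type I collagen protein the *Col1a1* chain outnumbers the *Col1a2* chain, and no ratio of transcripts can be fixed from these counts. *Alpl* and *Dmp1* also changed places by the longest transcript, with 87.7 ± 3.46 and 86.4 ± 11.9 TPM and overlapping ranges.

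The 3 osteocalcin genes were not equally abundant. *Bglap2* had 3732, 3713 and 3910 TPM and lay above *Bglap* in every library, at 1.82 ± 0.106 times its level by exon length and 1.30 ± 0.0758 times by the longest transcript. *Bglap3*, the copy with the most different coding sequence, had only 9.45, 11.3 and 8.82 TPM, from 152, 196 and 168 counts. Its annotated transcripts hold more sequence, with 3824 windows of 50 bases against 476 in *Bglap2*, which lowers its TPM. In plain counts *Bglap2* had 8536, 9146 and 10597. Over whole annotated transcripts, 80.0% of the 50-base windows of *Bglap2* and 56.6% of those of *Bglap* occurred in another gene, so the split between these 2 is uncertain. The share was 9.34% for *Bglap3*, but over more sequence. Of its windows, 357 were shared, so its count is uncertain as well. *Col1a1*, *Ibsp* and *Dmp1* shared none of their windows with another gene.

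*Dspp*, *Dmp1*, *Ibsp*, *Mepe* and *Spp1* encode related acidic phosphoproteins of bone and dentin and lie in this order on the plus strand of chromosome 5, from chr5:104318578 to chr5:104589235 in GRCm39. These neighbours were expressed at very different levels. *Dspp*, the major phosphoprotein of dentin, had 0 counts in all 3 libraries. *Dmp1* had 116 ± 16.1 TPM and *Ibsp*, downstream of it, 29466 ± 755 TPM, while *Mepe*, between *Ibsp* and *Spp1*, reached 10.1 ± 1.15 TPM, from 65, 80 and 97 counts.

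Among 15 transcription factors of the osteoblast lineage, 12 (80.0%) were expressed, against 51.5% of all protein-coding genes. *Sp7* (osterix), which acts downstream of *Runx2*, was the most abundant with 721, 695 and 733 TPM. Its level was 3.06 ± 0.0980 times that of *Runx2* by exon length and 2.51 ± 0.0804 times by the longest transcript. *Atf4*, an activator of osteocalcin transcription and amino acid import, had 495 ± 3.01 TPM, and the homeobox factor *Dlx5* had 271 ± 3.28 TPM. *Hey1* and *Twist2* were below 1 TPM in at least 1 library, with 12, 25 and 2 counts and 3, 9 and 6 counts, and *Ebf2* had 0 counts in all 3.

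All 5 defining osteocyte genes were expressed, but at levels that spanned from *Dmp1* down to *Fgf23*. *Phex*, an endopeptidase of phosphate homeostasis, had 26.7, 27.5 and 27.1 TPM. *Sost* had 3.32, 3.19 and 3.37 TPM, from 30, 31 and 36 counts. *Fgf23*, the hormone that the study set out to follow, had 1.96, 1.66 and 2.94 TPM, from 23, 21 and 41 counts. The *Fgf23* value rests on few reads, and replicate 3 lay above the other 2 libraries. *Dmp1* was 35.3 ± 4.04 times the level of *Sost* within a library.

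Of the 14 osteocyte genes, 10 (71.4%) were expressed, against 51.5% of all protein-coding genes. *Cd44*, a hyaluronan receptor, led with 247 ± 7.37 TPM, ahead of the homeobox factor *Irx5* with 126 ± 0.760 TPM. The Golgi kinase *Fam20c*, which phosphorylates secreted matrix proteins, had 47.9 ± 2.33 TPM, and podoplanin (*Pdpn*), a marker of early osteocytes and their dendrites, had 30.2 ± 0.753 TPM. The Wnt antagonist *Dkk1* had 2, 0 and 4 counts. *Kl*, the co-receptor through which *Fgf23* acts on the kidney, had 0 counts in all libraries.

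The matrix apart from collagen was broadly transcribed, with 26 of 28 genes (92.9%) expressed, against 51.5% of all protein-coding genes. Of these 26, 13 were at 1000 TPM or more. After *Ibsp*, *Sparc* and *Bglap2*, the highest were tenascin C (*Tnc*) with 2997, 3066 and 3200 TPM, *Spp1*, the small leucine-rich proteoglycan fibromodulin (*Fmod*) with 2995 ± 90.3 TPM and fibronectin (*Fn1*) with 2749 ± 160 TPM. Biglycan (*Bgn*) had 1774 ± 66.0 TPM and periostin (*Postn*) 1652 ± 76.5 TPM. Low members were also found. Fibrillin 1 (*Fbn1*) had 6.53 ± 1.16 TPM, and elastin (*Eln*) had 43, 42 and 30 counts and missed 1 TPM in at least 1 library.

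Collagen chain genes took 12.5% ± 0.350 of all counts. Of 44 such genes, 30 (68.2%) were expressed, against 51.5% of all protein-coding genes. The fibrillar chains that join type I collagen in mixed fibrils were high, with *Col3a1* at 3958 ± 230 TPM, *Col5a2* at 1451 ± 52.4 TPM and *Col5a1* at 1283 ± 65.0 TPM. The beaded-filament collagen VI chains *Col6a1*, *Col6a3* and *Col6a2* had 1846 ± 46.9, 1101 ± 68.2 and 677 ± 19.5 TPM. The basement membrane chains differed among themselves. *Col4a1* had 115 ± 12.3 TPM and *Col4a2* 97.5 ± 7.24 TPM, but *Col4a4* had 1 count in all and *Col4a3* had none. *Col19a1*, *Col25a1* and *Col26a1* also had 0 counts in all 3 libraries, and *Col10a1*, the collagen of hypertrophic cartilage, had 3, 1 and 13 counts.

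The genes that fold, cleave and cross-link collagen accompanied the chains, with 31 of 34 (91.2%) expressed, against 51.5% of all protein-coding genes. Apart from *Sparc*, which is on 3 of the lists, the highest were *P4hb* (the shared subunit of prolyl 4-hydroxylase, 1614 ± 45.7 TPM), the procollagen C-proteinase enhancer *Pcolce* (1474 ± 11.8 TPM), the collagen chaperone *Serpinh1* (1228 ± 6.10 TPM) and lysyl oxidase (*Lox*, 955 ± 23.4 TPM). Members of 1 family differed widely. *Loxl4* had 207 ± 8.96 TPM, but *Loxl2* had 18, 27 and 31 counts and did not reach 1 TPM in every library. Among procollagen N-proteinases, *Adamts2* had 205 ± 4.37 TPM and *Adamts3* had 0 counts.

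**Figure D2:**
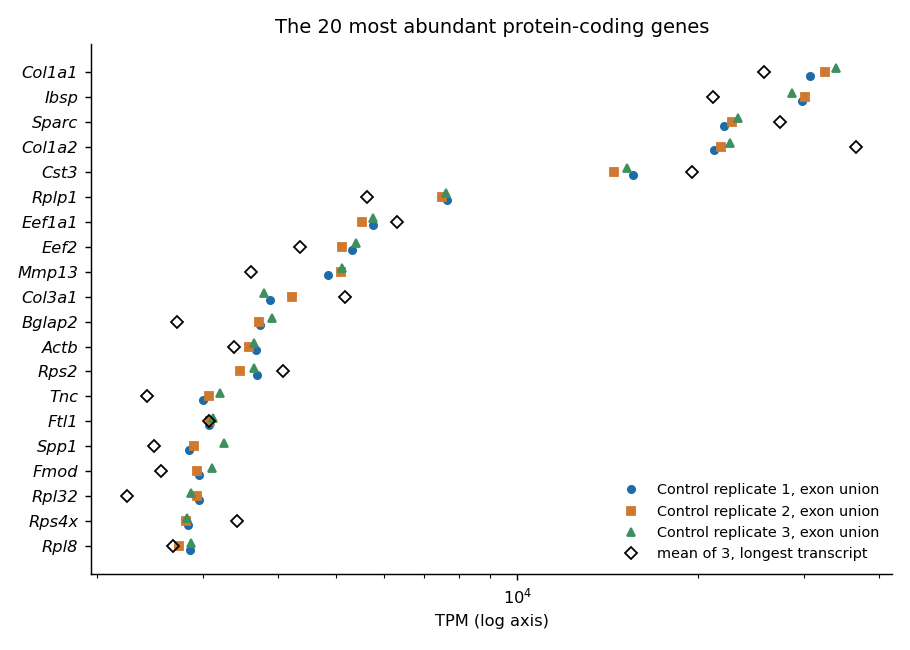
TPM (log axis) of the 20 most abundant nuclear protein-coding genes in each Control library, by exon length (filled) and as the mean of 3 by the longest transcript (open diamonds). *Col1a1*, *Ibsp*, *Sparc* and *Col1a2* stand apart from the rest together with *Cst3*, and *Col1a2* moves from 21884 to 36585 TPM with the length used.

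The 20 most abundant nuclear protein-coding genes held 18.1% of all TPM, and 9 of them encode matrix proteins. A further 5 encode ribosomal proteins (*Rplp1*, *Rps2*, *Rpl32*, *Rps4x* and *Rpl8*), which had between 2819 and 7577 TPM. The remaining 6 were *Cst3*, *Eef1a1*, *Eef2*, *Mmp13*, *Actb* and *Ftl1*. *Cst3*, the gene of the secreted cysteine protease inhibitor cystatin C, had 15572, 14481 and 15241 TPM. It was the most abundant nuclear protein-coding gene outside the matrix. *Mmp13*, a collagenase made by osteoblasts and hypertrophic chondrocytes, had 4833, 5081 and 5107 TPM. By the longest transcript 16 of the 20 genes were in the top 20, and by CPM 12 were. Of the 50-base windows of *Ftl1*, 50.2% were found in other genes, and among the 5 ribosomal genes the share ran from 4.12% for *Rpl8* to 37.2% for *Rps2*. Other genes also held 57.7% of the windows of *Loxl2*, 55.1% of *Tagln*, 47.0% of *Ccnd1* and 29.3% of *Phospho1*, so their levels are less certain.

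The distribution of levels was broad and the top was steep. The most counted gene, *Col1a2*, took 5.61% ± 0.140 of all counts, the 10 most counted genes 17.4% ± 0.343, and the 1000 most counted genes 57.4% ± 0.220. Of the protein-coding genes, 92 had a mean of 1000 TPM or more, 1313 lay between 100 and 1000, 7131 between 10 and 100 and 2757 between 1 and 10 TPM. Taken by library and not by mean, 7422 (34.3%) had no count in any library. Another 3072 (14.2%) were counted but missed 1 TPM in at least 1 library. Some of these, such as *Hoxc4* with a mean of 1.34 TPM, are also in the bands by mean. The median of the expressed genes was 25.4 TPM, so *Phex* at 27.1 TPM was close to a typical expressed gene and *Sost* and *Fgf23* were well below it.

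Mineralization and phosphate handling genes were expressed in 18 of 24 cases (75.0%), against 51.5% of all protein-coding genes. Besides *Alpl*, the pathway that supplies phosphate inside matrix vesicles was present, with *Smpd3* (neutral sphingomyelinase 2) at 570 ± 12.0 TPM and the phosphocholine phosphatase *Phospho1* at 45.9 ± 1.52 TPM. The makers and exporters of the mineral inhibitor pyrophosphate were unequal. *Ank*, which exports pyrophosphate or its precursor ATP, had 48.4, 42.9 and 51.3 TPM, whereas *Enpp1*, which cleaves ATP to pyrophosphate, had 3.78, 2.23 and 4.80 TPM. Matrix Gla protein (*Mgp*), another inhibitor, was the most abundant of the list with 1111, 1114 and 1049 TPM.

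Among phosphate carriers, the type III sodium-dependent importers *Slc20a1* (PiT1) and *Slc20a2* (PiT2) were expressed, with 30.9 ± 0.950 and 26.2 ± 0.815 TPM. The phosphate exporter *Xpr1* had 13.4 ± 0.0591 TPM. By the longest transcript *Slc20a2* and *Xpr1* had 37.6 ± 1.19 and 22.6 ± 0.0962 TPM, and *Slc20a2* then lay above *Slc20a1* with 30.2 ± 0.952 TPM. The type II importers of kidney and gut, *Slc34a2* and *Slc34a3*, had 0 counts in all libraries, and *Slc34a1* had 3 counts in replicate 2 alone. *Fgfr1*, a receptor of FGF ligands, had 273 ± 6.82 TPM, while its partner *Kl* was at 0.

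Of 17 hormone receptors, 13 (76.5%) were expressed, against 51.5% of all protein-coding genes. The parathyroid hormone receptor *Pth1r* had 1004, 960 and 1007 TPM, at rank 93 of the protein-coding genes. The vitamin D receptor *Vdr* had 112 ± 10.4 TPM, but *Cyp24a1*, the vitamin D-inactivating enzyme that the receptor induces, had 0 counts in all libraries. The glucocorticoid receptor *Nr3c1*, which binds the dexamethasone of the medium, had 54.4 ± 1.52 TPM. *Esr1*, a receptor of estrogen, was low at 3.00 ± 0.160 TPM, and the calcitonin receptor *Calcr* had 0 counts.

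The factors by which osteoblasts steer osteoclasts were at unequal levels. Osteoprotegerin (*Tnfrsf11b*), the decoy receptor that blocks RANKL, had 348, 324 and 338 TPM. RANKL itself (*Tnfsf11*) had 0 counts in all 3 libraries, so that it was not detectable at this depth. *Csf1*, the macrophage growth factor that osteoclast precursors need, had 294, 272 and 326 TPM. Of the 10 factors, 6 were expressed, near the 51.5% of all protein-coding genes, and *Wnt16* was the other member with 0 counts.

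**Figure D3:**
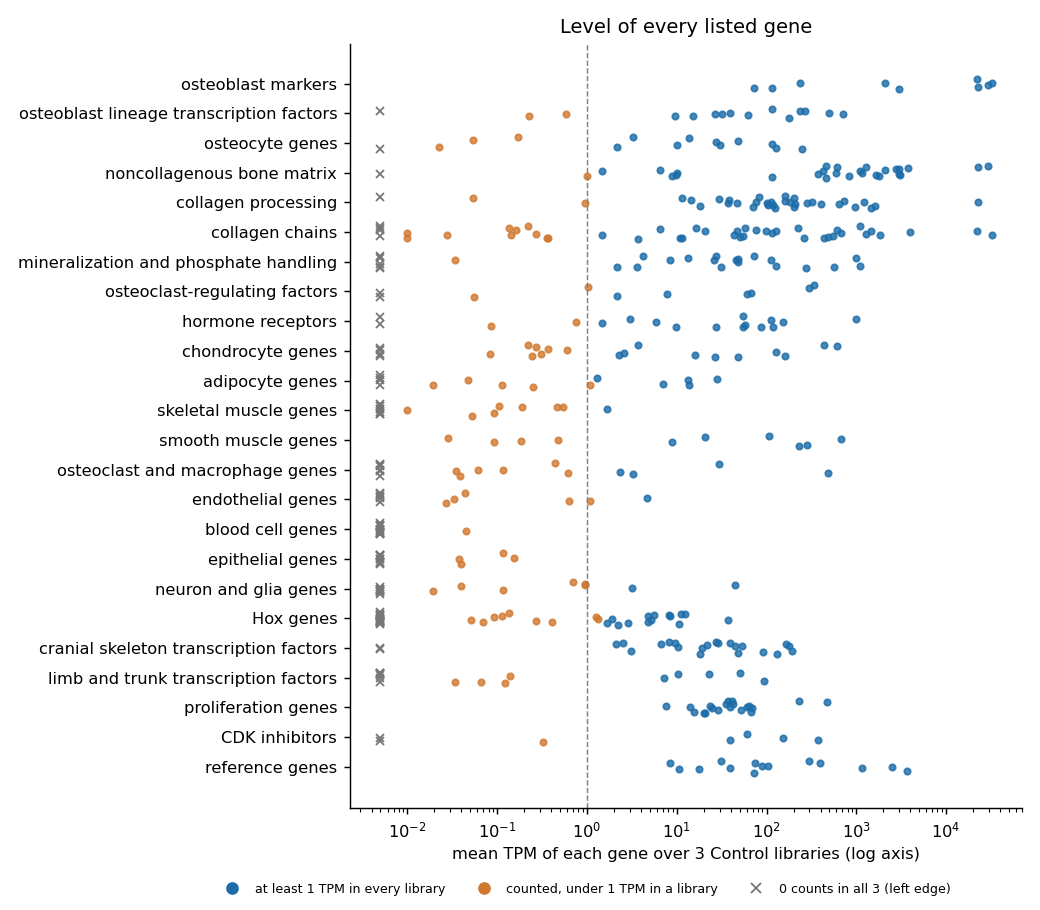
Mean TPM over the 3 Control libraries (log axis, values under 0.01 drawn at 0.01) of every gene on 24 lists; blue points reached 1 TPM in every library, orange points were counted but missed it, and grey crosses had 0 counts in all 3. Every osteoblast marker, proliferation and reference gene is blue, and all 13 blood cell and all 13 epithelial genes lie under 1 TPM.

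Markers of blood, epithelial, endothelial, skeletal muscle and neural cells were sparse, whereas 51.5% of all protein-coding genes were expressed. No blood cell gene was expressed (12 of 13 at 0 counts), and no epithelial gene was (9 of 13 at 0). Of 12 endothelial genes, *Plvap* alone was expressed with 4.70 ± 0.0936 TPM, and the defining *Cdh5* and *Tie1* had 0 counts while *Pecam1* had 4, 0 and 2. Of 15 skeletal muscle genes, *Mylpf* alone was expressed with 1.69 ± 0.882 TPM, and the regulators *Myod1* and *Myog* had 0 counts. Neuron and glia genes were expressed in 2 of 16 cases, with *S100b* the highest at 44.1 ± 3.19 TPM, while *Rbfox3*, *Snap25* and *Gfap* had 0 counts.

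Of 16 osteoclast and macrophage genes, 4 (25.0%) were expressed, against 51.5% of all protein-coding genes. The collagenolytic protease cathepsin K (*Ctsk*) stood out with 489, 491 and 482 TPM. The transcription factor *Nfatc1* had 29.5 ± 2.63 TPM. The defining genes *Ptprc*, *Dcstamp* and *Calcr* had 0 counts in all 3 libraries, and *Csf1r* had 27, 21 and 15 counts. *Acp5*, the tartrate-resistant phosphatase of osteoclasts, had 2 counts in replicate 1 alone. The summed level of the list was 521 to 527 TPM in a library, most of which was *Ctsk*.

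Of 21 chondrocyte genes 10 (47.6%) were expressed, a share near the 51.5% of all protein-coding genes, so the count sets the list apart in neither direction. *Col2a1*, the main collagen of cartilage, had 138, 107 and 135 TPM, and *Sox9*, the master regulator of chondrocytes, had 48.0 ± 3.72 TPM. *Col11a1* and *Col11a2*, which also occur in bone fibrils, had 608 ± 21.6 and 439 ± 21.6 TPM, and the link protein *Hapln1* had 162 ± 1.94 TPM. In contrast, aggrecan (*Acan*) and matrilin 1 (*Matn1*), which are defining for cartilage, had 0 counts in all libraries, and *Col9a1* had 6, 3 and 7 counts. *Chad* and *Cytl1* were also at 0.

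Adipocyte genes were expressed in 5 of 14 cases (35.7%), against 51.5% of all protein-coding genes. None exceeded 28.1 ± 2.35 TPM, the level of the transcription factor *Cebpa*. Its partner *Pparg*, the main regulator of fat cells, had 0, 1 and 4 counts. *Plin1* and *Cidec*, which coat lipid droplets, had 0 counts, *Adipoq* had 2, 4 and 2, and *Lep* had 1 count in replicate 3 alone. Other members of the list went the other way. *Plin4*, a relative of *Plin1*, was expressed with 444, 581 and 506 counts, and *Lipe* with 189, 204 and 205 counts. *Fabp4*, a fatty acid carrier, had 13.6 ± 1.76 TPM.

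Smooth muscle genes were expressed in 6 of 10 cases, near the 51.5% of all protein-coding genes. *Acta2* had 687, 691 and 633 TPM, and *Mylk*, the myosin light chain kinase, had 280 ± 5.43 TPM. *Smtn* and *Tagln* had 228 ± 7.16 and 106 ± 5.77 TPM. *Lmod1* and *Des* were also expressed, with 356, 416 and 443 counts and with 215, 203 and 229 counts. The defining genes *Myh11* and *Myocd*, and *Cnn1*, did not reach 1 TPM in every library. *Myh11* had 3, 4 and 3 counts, *Cnn1* had 1 count in all, and *Myocd*, the coactivator of the programme, had 9, 12 and 29 counts.

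Hox genes, whose 4 clusters give cells a position along the body axis, were expressed in 14 of 39 cases (35.9%). The share over all protein-coding genes was 51.5%, and all 14 were in clusters a and b. In cluster a, 8 of 11 genes were expressed, and *Hoxa10* led with 37.7, 35.6 and 37.7 TPM. *Hoxa11*, which follows it in the cluster, had 0 counts in all 3 libraries. *Hoxa5* had 12.4 ± 2.28 TPM and *Hoxa7* 11.1 ± 0.625 TPM. In cluster b, 6 of 10 genes were expressed, led by *Hoxb13*, its most 5′ gene, with 7.78, 8.27 and 9.16 TPM and *Hoxb9* with 9.24, 7.64 and 7.80 TPM, whose ranges overlapped.

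Cluster c had 105 counts over 9 genes and 3 libraries, and no member reached 1 TPM in every library. *Hoxc4* came closest with 1.34 ± 0.623 TPM and *Hoxc6* with 1.25 ± 0.283 TPM, and both counted as expressed without replicate 2, at 0.5 TPM or at 10 counts, which made 16 Hox genes. The 9 genes of cluster d had 0 counts in all 3 libraries. Several Hox genes overlap antisense or read-through transcripts, so that 48.1% of the windows of *Hoxb3* and 17.4% of those of *Hoxa10* occurred in other annotated genes. Whether the counting used strand is not given in the sources used here.

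**Figure D4:**
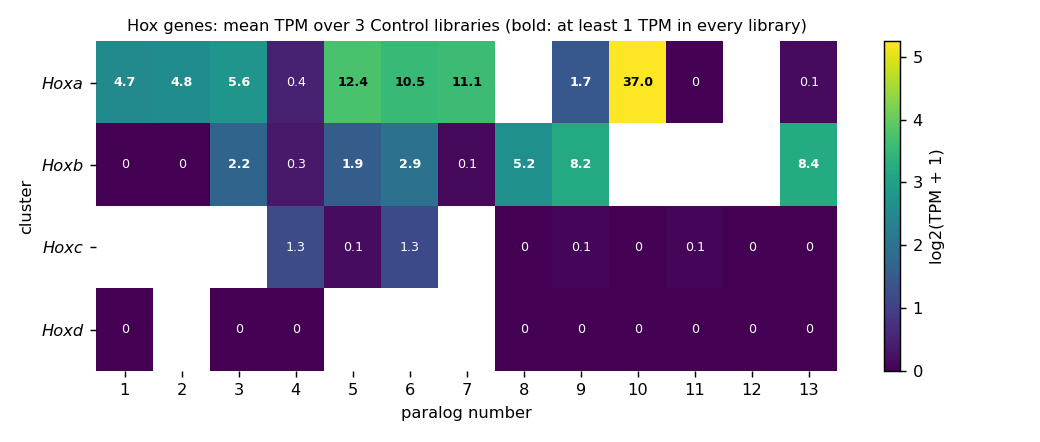
Mean TPM over the 3 Control libraries of the 39 Hox genes by cluster (rows) and paralog number (columns), coloured by log2(TPM + 1); bold numbers reached 1 TPM in every library, 0 marks genes with no count, and white fields have no gene. Expressed genes fill parts of clusters a and b, with *Hoxa10* highest at 37.0 TPM, and cluster d is at 0 throughout.

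Transcription factors of the cranial skeleton were expressed in 21 of 23 cases (91.3%), against 51.5% of all protein-coding genes. *Prrx1*, a factor of craniofacial and limb mesenchyme, had 188, 196 and 188 TPM, *Twist1*, which keeps sutures open, had 178 ± 2.81 TPM, and *Six2* had 164, 164 and 163 TPM. *Alx4*, needed for closure of the skull vault, had 132 ± 3.39 TPM. The neural crest factors *Tfap2b* and *Pax3* had 48.5 ± 2.21 and 27.4 ± 1.81 TPM. *Zic1* and *Barx1* had 0 counts in all libraries. Of 16 limb and trunk factors, 5 (31.25%) were expressed, led by *Tbx15* with 93.9 ± 1.83 TPM and *Tbx18* with 50.3 ± 1.44 TPM. The limb and somite factors *Tbx5*, *Pitx1*, *Meox2*, *Pax1*, *Uncx*, *Nkx3-2* and *Tcf15* had 0 counts.

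Genes of the cell cycle were transcribed. All 20 proliferation genes were expressed, against 51.5% of all protein-coding genes. Among them, *Top2a*, a topoisomerase of dividing cells, had 67.0, 67.3 and 74.7 TPM, and *Mki67* had 50.1, 52.6 and 53.2 TPM. *Ccnd1* was the highest at 475 ± 15.4 TPM, and *Pcna* had 231 ± 1.63 TPM. Inhibitors of cyclin-dependent kinases were present at the same time, with *Cdkn1a* at 370 ± 1.72 TPM and *Cdkn1b* at 154 ± 4.71 TPM. The INK4 genes were split, since *Cdkn2c* and *Cdkn2d* had 39.5 ± 1.30 and 60.1 ± 3.85 TPM but *Cdkn2a* and *Cdkn2b* had 0 counts in all 3 libraries.

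All 14 genes commonly used as references were expressed, from *Actb* at 3631 ± 49.9 TPM to *Tfrc* at 8.47 ± 0.190 TPM. *Rplp0*, the reference of the study's own qPCR, had 2519, 2425 and 2539 TPM and was 1 of the 3 references at 1000 TPM or more, with *Actb* and *B2m*. *Gapdh* had 281, 289 and 318 TPM, and 41.1% of its windows also occurred in other genes.

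The 3 libraries were close to each other, yet they differed by more than sampling noise. The chi-square per degree of freedom was between 3.01 and 3.35 for the pairs, where counting noise alone gives about 1. The common biological coefficient of variation by edgeR was 3.63%. Over 11216 expressed genes with a mean of at least 50 counts, the highest library was 1.09 times the lowest at the median, in CPM scaled by the trimmed mean of M-values (TMM). The ratio exceeded 1.5 for 204 genes (1.82%), of which 191 had a mean under 200 counts.

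By this ratio, the genes that varied most were of low abundance, where counting noise alone widens it. The median ratio was 1.23 for genes with a mean of 50 to 200 counts and 1.06 at 1000 counts or more. *Hid1*, which acts in the sorting of secretory granules, had 71, 31 and 85 counts and a ratio of 2.48. *Enpp1* had 7.91, 4.68 and 10.0 CPM and a ratio of 2.14, the largest of any mineralization gene on the list. Others of the 10 largest ratios were *Syt12* (2.30), complement *C3* (2.29) and the matrix protein *Thbs4* (2.21), with their highest library in replicates 3, 2 and 1. Beside the 10 largest ratios, *Dpt*, *Lcat* and the pseudogene *Rps4x-ps* were among the 10 largest dispersions. Of the 4793 genes with a mean of at least 1000 counts, *Malat1*, a nuclear long noncoding RNA, alone exceeded 1.5, with 6207, 11165 and 8331 counts and a ratio of 1.67.

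Among the osteoblast markers, the ratio ran from 1.02 for *Runx2* to 1.30 for *Dmp1*. *Dmp1* had 73.4, 66.8 and 86.9 CPM, and *Vdr* and *Ank*, with ratios of 1.19 each, and *Enpp1* shared its order, highest in replicate 3 and lowest in replicate 2. The order of 3 libraries was chosen after the values were seen and was not tested.

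**Figure D5:**
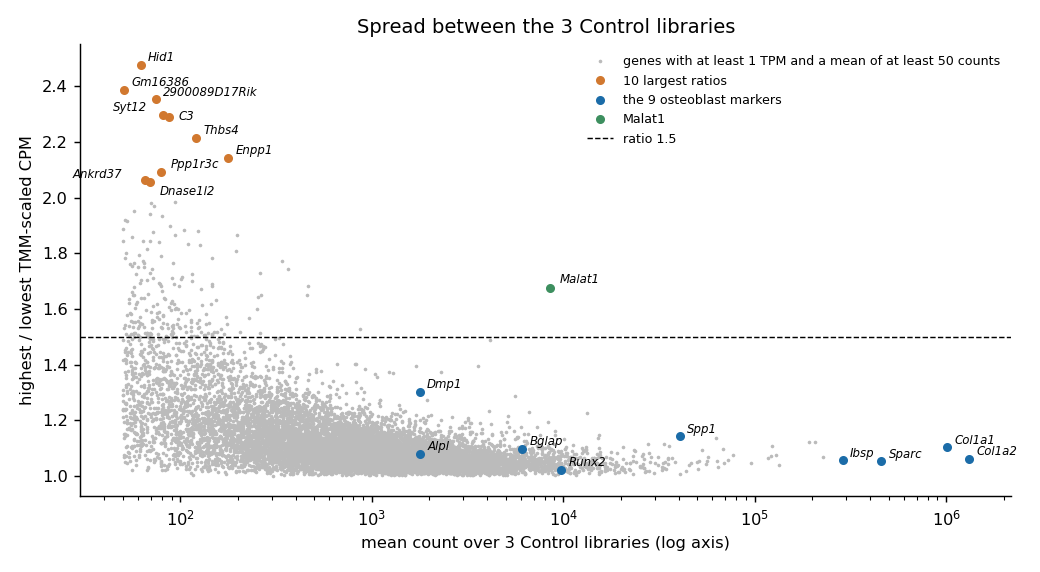
Ratio of the highest to the lowest TMM-scaled CPM over the 3 Control libraries against the mean count (log axis) for 11216 expressed genes; orange points are the 10 largest ratios, blue points the 9 osteoblast markers, the green point *Malat1*, and the dashed line a ratio of 1.5. The 10 largest ratios all lie under 200 counts, and every osteoblast marker lies at 1.30 or below.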

How the data were processed

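RNA was isolated with TRIzol, and stranded poly(A) libraries (Truseq) were sequenced as paired reads. The authors deposited a table of counts, whole numbers per Ensembl gene without normalization, made by mapping to GRCm39 in the AIR software. FastQC and edgeR are named in the submitters' processing notes. The counting program and its use of strand are not given in the sources used here. The authors also deposited TMM-scaled values (a signal, the counts of a library times 1 factor), from which gene names alone were taken. Of the columns, 0 belonged to another series, and 6 treated libraries of the 9 were not used.

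The 3 Control columns were matched to GENCODE gene models on GRCm39. These models are of another release than the Ensembl annotation that the study names for mapping. Counts and exon lengths can therefore rest on different exons, which adds to the uncertainty of every TPM. Of 55416 IDs, 667 were not in the annotation, with at most 0.0423% of counts. Within a library, the count of a gene was divided by the length of its merged exons and scaled to TPM. Expression required 1 TPM in every library. TMM factors, filterByExpr and dispersions came from edgeR 4.0.16 with an intercept only. Tagwise dispersions are shrunk towards a trend and understate the largest spreads. R 4.3.3, Python 3.11.15, pandas 2.3.3, numpy 2.4.6 and matplotlib 3.10.9 were used. The scripts were tested on simulated data. There is 1 group, so no test was made.

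Named genes were the 9 markers, the 20 most abundant nuclear protein-coding genes, the highest, defining and 0-count members of 24 lists (414 genes), and the 10 largest dispersions and ratios between libraries. Other list members were named after their values were seen. A few list members are not reported here. Members and lists were chosen with earlier results of these data known. At these depths 10 counts are 0.390 to 0.467 CPM. Alternatives were the longest transcript, CPM, thresholds of 0.5 and 2 TPM or 10 counts, filterByExpr, totals without mitochondrially encoded genes, scaling by DESeq2 1.42.0 size factors or by totals alone, 2 other filters for the dispersion, and each replicate left out.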

Additional observations from a re-analysis of the deposited data

How the results depend on the processing

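No paired analysis was possible because the description covers 1 group and no result comes from a test. The number of expressed protein-coding genes lay between 10633 and 11516, against 11133, and that of expressed Hox genes between 11 and 16, against 14, over the alternatives run, while the 9 markers stayed expressed in each. The share of the 10 most abundant genes was 21.6% as a share of TPM, against 17.4% of counts, and that of collagen chains was 6.79% against 12.5%. The 10 genes were taken anew in each unit, with mitochondrially encoded genes included. They are thus not a part of the 20 nuclear genes at 18.1% of TPM. Both shares moved with the unit, since TPM divides by length, and for the first the set of genes changed as well. The common coefficient of variation was 3.15% to 3.97%. Of 490 genes followed, 270 moved by more than their SD with the longest transcript, and 22 moved by more than 1.5 times. Beside *Col1a2* and *Xpr1*, these included *Bgn* at 2870 TPM, *Fkbp5* at 563, *Prrx1* at 309, *Fam20c* at 75.0 and *Esr1* at 4.64 TPM. As CPM, 226 moved by more than 1.5 times, and TMM scaling moved 0 by more than their SD. Merged exons were over 1.5 times the longest transcript in 42.1% of expressed genes, so levels of different genes carry this uncertainty. Leaving out 1 replicate moved 43 of the genes by more than 1.5 times, all of which missed 1 TPM and had at most 39 counts in all. Genes with few counts, such as *Fgf23* and *Sost*, are limited by depth.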

Other observations

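Some abundant genes outside the lists were picked after their values were seen, and they are given as values. The metallothioneins *Mt2* and *Mt1*, small metal-binding proteins, had 2235 ± 75.0 and 1463 ± 69.2 TPM. The Wnt inhibitory factor *Wif1* had 1955 ± 62.2 TPM, at rank 37 of the protein-coding genes. Its functional relatives were far apart, since *Sfrp2* had 515 ± 34.5 TPM but *Sfrp1* and *Sfrp4* had 1 and 3 counts in all libraries together. β-catenin (*Ctnnb1*), the effector of Wnt signalling, had 1655 ± 26.6 TPM, and its target *Axin2* had 81.7 ± 2.15 TPM.

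Matrix metalloproteinases and their inhibitors spanned a wide range beside *Mmp13*. *Mmp2* had 1566 ± 58.5 TPM, its membrane-bound activator *Mmp14* had 862 ± 14.1 TPM, and the inhibitor *Timp2* had 1801 ± 49.2 TPM. *Mmp8* and *Timp4* had 18.2 ± 2.39 and 12.5 ± 3.63 TPM, and *Mmp16* had 3.27 ± 0.565 TPM. *Mmp9*, *Mmp17* and *Mmp23* missed 1 TPM in at least 1 library, *Mmp3* had 2 counts in replicate 2 alone and *Mmp10* had none. Genes that glucocorticoids can induce were at very different levels. *Tsc22d3* (GILZ) had 877 ± 11.6 TPM, *Sgk1* 340 ± 8.29 TPM and *Fkbp5* 315 ± 6.32 TPM, but *Dusp1* had 24.9 ± 1.73 TPM, *Zbtb16* 2.36 ± 0.280 TPM and *Angptl4* 3 counts in replicate 3 alone. No library without dexamethasone was analysed here. The osteoblast channel gene *Panx3* had 839 ± 18.6 TPM, and *Ifitm5*, a membrane protein of mineralizing osteoblasts, had 173 ± 6.51 TPM.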
